A study of Mus musculus with 2 samples.

Results

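The cells described here were 242 epithelial cells from primary culture of mouse inguinal white adipose tissue (iWAT) that carried transcripts of 1 or more of Foxa1, Tspan1 and Padi2. They were selected on measured UMI counts (unique molecular identifiers, each standing for 1 captured transcript). A member had at least 1 Epcam UMI, at least 10 UMIs of Krt8 and Krt18 together, at least 3 UMIs of Foxa1, Tspan1 and Padi2 together, no Pdgfra UMI and fewer than 3 Krt5 UMIs. The members were 0.814% of the 29744 iWAT cells that passed the cell filter (95% interval 0.715 to 0.922) and 8.84% (7.80 to 9.96) of the 2739 iWAT cells that met the Epcam and keratin limits. The whole series held 57959 filtered cells. The comparison groups were the other 2497 cells that met the Epcam and keratin limits, called other epithelial cells below, and 17129 Pdgfra-positive cells outside these limits. Pdgfra is carried by adipose stromal cells and preadipocytes.

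The study addressed the response of cultured preadipocytes to fibroblast growth factors (FGFs). Stromal vascular fractions of pooled iWAT and interscapular brown adipose tissue (iBAT) came from wild-type C57BL/6N mice of 8 to 12 weeks and were grown to 80% confluency. Per the labels, each depot had 4 cultures kept for 48 h, 1 without added factor and 3 with 5.5 nM of FGF1, of FGF2 or of FGF8, and 10000 cells of each of the 4 were tagged and merged on a BD Rhapsody cartridge for 40000 cells, a microwell system for single-cell libraries. The series' design text names only FGF2 and untreated cells, and the published methods name vehicle, FGF1 and FGF2 and another age range. The files used here give no tag per cell, so each depot was 1 library that pools all treatments, no cell had a known treatment, and no difference below has a replicate check or a test.

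Epithelium in the inguinal fat pad of female mice belongs to the mammary gland, whose ducts branch within the pad. The labels name neither the sex of the mice nor a mammary source. Mammary ducts have an outer layer of contractile basal cells and an inner layer of luminal cells. One luminal type is hormone-sensing. It carries receptors for estrogen, progesterone and prolactin and passes their signals to neighbouring cells through secreted factors such as amphiregulin, Wnt4 and RANK ligand. The other luminal type is secretory and gives rise to milk-producing alveoli. FOXA1 is a forkhead factor that opens chromatin for the estrogen receptor, Tspan1 encodes a tetraspanin of the cell surface, and Padi2 encodes an enzyme that converts arginine in proteins to citrulline.

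Foxa1 lies on chromosome 12 (57587414 to 57593702, minus strand), Tspan1 on chromosome 4 (116019066 to 116024862, minus strand) and Padi2 on chromosome 4 (140633647 to 140679897, plus strand) in GENCODE M39 on GRCm39. Promoter windows from RefSeq, which run from 250 bases before to 50 bases after a gene's start on build GRCm38.p6, were searched on both strands for TGTTTAC, letters found in forkhead sites. The search covered Foxa1, Tspan1, Padi2 and the 25 genes with the highest ratio over the other epithelial cells, 28 in all, of which 24 had a window. The letters occurred in 4 of the 24 genes (16.7%), against 4.05% of all 27025 genes with a window. By window, they occurred in 4 of 30 (13.3%) against 3.65% of all 32851. The searched genes either chose the cells or were ranked in the same cells, so these shares are descriptions and no test. The 4 windows are shown because they belong to Foxa1 itself and to 3 genes that were high in the same cells, with the letters in capitals as read on either strand. They lie at chr12:57546062-57546361 on the minus strand for Foxa1, chr15:10223656-10223955 on the plus strand for Prlr, chr19:29924863-29925162 on the plus strand for Il33 and chr10:21160935-21161234 on the minus strand for Myb. Counted from the start site, the match begins at -141 in Foxa1, -215 in Prlr, -162 in Il33 and 33 in Myb.
Foxa1: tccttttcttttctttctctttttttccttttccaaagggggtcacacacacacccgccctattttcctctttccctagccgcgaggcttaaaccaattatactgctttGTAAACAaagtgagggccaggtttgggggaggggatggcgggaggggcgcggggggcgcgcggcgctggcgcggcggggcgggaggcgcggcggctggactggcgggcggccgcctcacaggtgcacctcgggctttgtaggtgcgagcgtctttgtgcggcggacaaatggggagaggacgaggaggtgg
Prlr: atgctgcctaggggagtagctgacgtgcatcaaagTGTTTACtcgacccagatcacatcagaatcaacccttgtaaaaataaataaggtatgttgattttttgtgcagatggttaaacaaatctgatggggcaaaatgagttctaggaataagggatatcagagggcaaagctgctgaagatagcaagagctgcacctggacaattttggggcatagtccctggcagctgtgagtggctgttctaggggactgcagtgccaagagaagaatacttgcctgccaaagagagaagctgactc
Il33: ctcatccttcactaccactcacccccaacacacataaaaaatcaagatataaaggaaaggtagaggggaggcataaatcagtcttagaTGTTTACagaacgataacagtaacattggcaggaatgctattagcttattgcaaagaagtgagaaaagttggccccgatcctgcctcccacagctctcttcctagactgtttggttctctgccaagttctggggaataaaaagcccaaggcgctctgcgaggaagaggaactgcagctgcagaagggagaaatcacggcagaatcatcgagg
Myb: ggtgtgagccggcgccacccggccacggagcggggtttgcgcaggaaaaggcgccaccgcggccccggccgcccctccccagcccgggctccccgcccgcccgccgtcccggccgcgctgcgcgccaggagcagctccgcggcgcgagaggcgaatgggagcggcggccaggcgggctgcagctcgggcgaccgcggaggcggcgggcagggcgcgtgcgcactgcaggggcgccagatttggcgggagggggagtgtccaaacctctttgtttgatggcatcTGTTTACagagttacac

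Prlr and Il33 have further windows without these letters. The letters found in steroid receptor sites, AGAACA, occurred in 5 of the 24 genes (20.8%) against 21.3% of all genes, and GATA letters, AGATAA, in 3 (12.5%) against 12.7%. Prlr was the only gene with 2 of the motifs, at -215 and -12, which do not overlap. A match describes the letters in a window and shows no binding.

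A member held a median of 9982 UMIs and 3526 detected genes, against 12999 and 3984 in the other epithelial cells and 18148 and 4720 in the Pdgfra-positive cells. Mitochondrial transcripts made up a median of 10.4% of a member's UMIs, against 8.99% and 5.48%. Levels below are CPM, the UMIs of a gene summed over a group and scaled to 1e6 UMIs of that group, and intervals are 95% and cover counting error only. The members held 2609095 UMIs, and the floor of 3 UMIs corresponds to 1.15 CPM. The 8 cell index numbers that both libraries shared included 0 of the members. Scrublet called 4 members doublets (1.65%, 0.452 to 4.18), against 6.13% of the other epithelial cells and 1.92% of the Pdgfra-positive cells, and doublets were kept.

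The counts that chose the members are given as a description. The sum of Foxa1, Tspan1 and Padi2 UMIs per member was 3 at the lowest, 8 at the median and 27 at the highest, and all 3 genes were present in 147 members (60.7%). Another 41 members had Foxa1 and Tspan1 only, 28 had Tspan1 and Padi2 only, 11 had Foxa1 and Padi2 only, and 15 had a single one of the genes. The keratin sum ran from 10 through a median of 16 to 107. Epcam stood at 1485 CPM in the members and 780 CPM in the other epithelial cells, while Krt8 (873 and 1078 CPM) and Krt18 (933 and 1403 CPM) did not exceed the level of the other cells.

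Of 7055 genes at 20 CPM or more in the members or the other epithelial cells, 428 (6.07%) were at least 2-fold higher in the members and 264 (3.74%) at least 2-fold lower, with a median log2 ratio of 0.04. All genes of the cells could differ through the rule, so these counts describe the selection and are no test. A gene that reached 20 CPM in a single group could hardly be counted in the other direction, which holds for each list below, so counts over the genes that passed are descriptions and support nothing. At 8-fold or more, 82 genes were higher and 3 were lower. Against the Pdgfra-positive cells, 1159 of 7516 genes (15.4%) were at least 2-fold higher and 1082 (14.4%) at least 2-fold lower, with a median log2 ratio of 0.06.

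**Figure D1:**
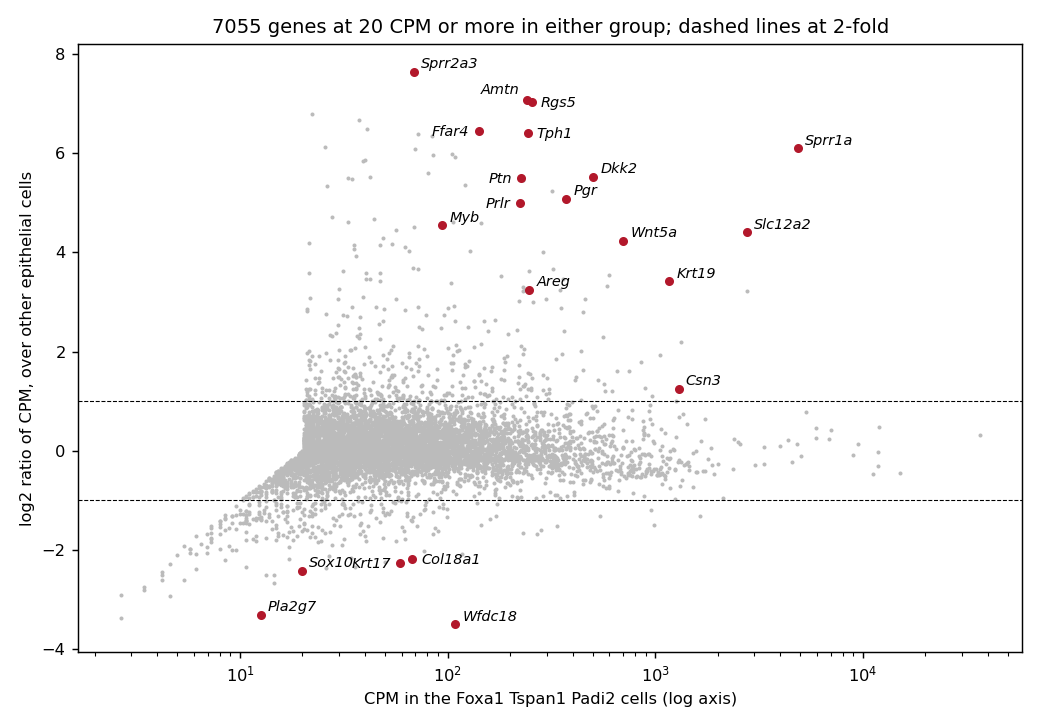
Log2 ratio of CPM in the 242 Foxa1 Tspan1 Padi2 cells over the 2497 other epithelial cells (vertical axis) against CPM in the members (horizontal log axis), 1 point per gene for 7055 genes, with named genes in red. The cloud is centred near 0 (median 0.04), and genes past the upper 2-fold line reach a log2 ratio of 7.65 (Sprr2a3), whereas the lowest labelled gene stands at -3.51 (Wfdc18).

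Receptors and effectors of hormone-sensing luminal cells were mostly higher in the members, which were themselves chosen on Foxa1 of this list. The list held 18 genes, of which 1 was used by the rule. Of the 13 others that reached 20 CPM, 10 were at least 2-fold higher in the members than in the other epithelial cells and 0 were at least 2-fold lower, with a median log2 ratio of 2.84. Xbp1 (128 and 138 CPM) and Ly6a (1356 and 811 CPM) were among those within 2-fold. Pgr, Prlr, Esr1, Wnt4, Ptn, Prom1 and Greb1 reached 20 CPM in the members alone and so could not have been counted as lower. Ptn was also among the marker genes listed for these cells, and members and lists were chosen with earlier results of these data known. The count and the median are therefore descriptions.

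Pgr, the progesterone receptor, was at 373 CPM (350 to 398) in the members, 11 CPM in the other epithelial cells and 41.6 CPM in the Pdgfra-positive cells. A member had between 0 and 21 Pgr UMIs with a median of 3, and 199 members had at least 1. The ratio to the other epithelial cells was 33.9-fold (log2 5.08, 4.91 to 5.26). It was 8.97-fold against the Pdgfra-positive cells, the group with the higher of the 2 comparison levels.

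Prlr, the prolactin receptor, was at 223 CPM (206 to 242) against 6.99 CPM and 1.72 CPM. Its UMIs per member ran from 0 through a median of 1 to 20, and 147 members had at least 1. The ratio to the other epithelial cells was 32.0-fold (log2 5.00, 4.78 to 5.22). Esr1, the estrogen receptor alpha that partners with FOXA1, was at a low level in all 3 groups. It stood at 32.6 CPM (26.0 to 40.3) in the members, 4.98 CPM in the other epithelial cells and 11.5 CPM in the Pdgfra-positive cells, and 62 members had a UMI, with at most 3 per cell.

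Among the secreted factors, Areg, the amphiregulin ligand of the EGF receptor, was at 247 CPM (228 to 267) against 26.0 CPM and 1.35 CPM. Its UMIs were uneven, since 133 members had at least 1, the highest had 36, and the 25 members with the most held 49.3% of all. Wnt4, a Wnt ligand downstream of the progesterone receptor, was at 33.3 CPM (26.7 to 41.1) against 0.739 CPM and 1.52 CPM, with a UMI in 63 members. Tnfsf11, which encodes RANK ligand, had 1 UMI in all members together. Thus 2 of the 3 paracrine factors named above were present at 20 CPM or more, and the third was at the level of single counts.

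Transcriptional regulators of hormone-sensing cells stood at unlike levels in the members. Gata3, a luminal lineage factor, was at 237 CPM against 94.0 CPM, or 2.52-fold, but under 2-fold (log2 0.95) when the keratin limit was raised to 20 UMIs. Tbx3, a T-box factor of mammary development, was at 232 CPM against 23.4 CPM, or 9.93-fold. Cited1, a coactivator of the estrogen receptor, had 12 UMIs in 11 members (4.60 CPM, 2.38 to 8.03), which was below the 20 CPM limit. Of the 8 hormone-sensing markers listed for naming cells, Foxa1 was used by the rule. Among the other 7, Esr1, Pgr, Prlr, Gata3, Areg and Tbx3 were at 20 CPM or more and at least 2-fold above the other epithelial cells.

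**Figure D2:**
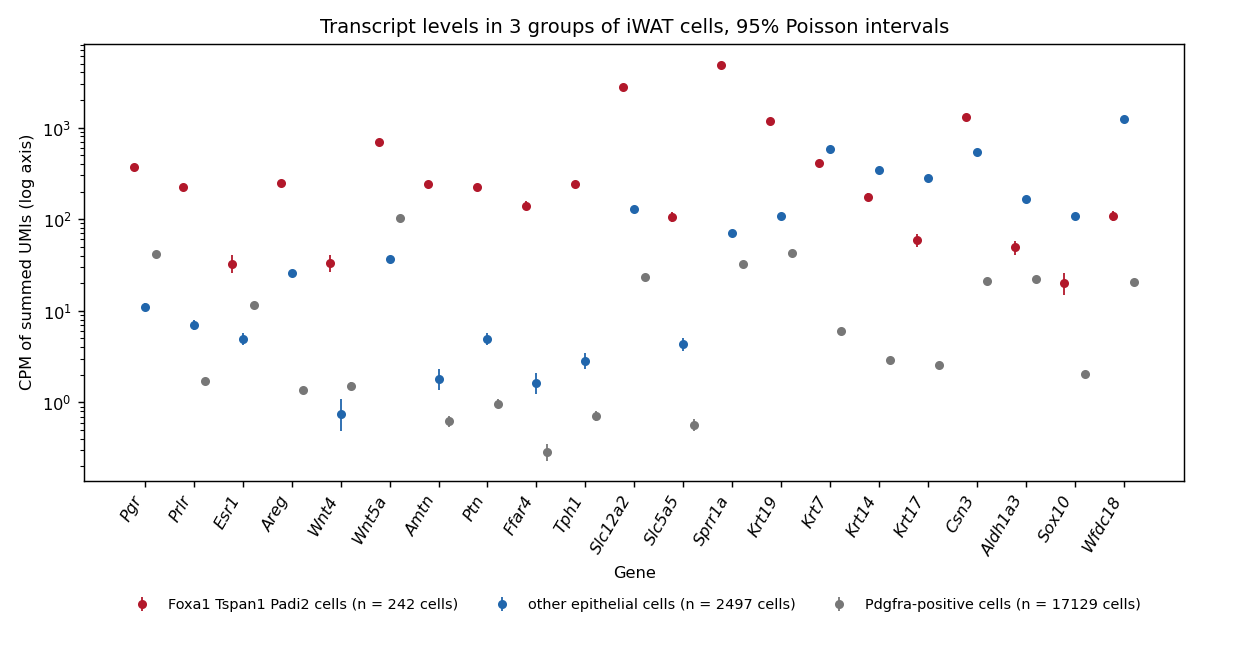
CPM of summed UMIs on a log axis for 21 genes in the 242 Foxa1 Tspan1 Padi2 cells, the 2497 other epithelial cells and the 17129 Pdgfra-positive cells, with 95% Poisson intervals that cover counting error only. The members lie above both other groups from Pgr to Krt19, below the other epithelial cells for Krt7, Krt14, Krt17, Aldh1a3, Sox10 and Wfdc18, and above them again for Csn3.

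Progesterone and prolactin receptor transcripts were shared by many but not all members. Of the 242 members, 89 (36.8%) had UMIs of Pgr, Prlr and Areg, 75 had 2 of these genes, 62 had 1 and 16 (6.61%) had none. Of the 147 members with Prlr, 136 (92.5%) had Pgr, which was found in 82.2% of all members. Across members the Spearman correlation of UMIs as a share of the cell was 0.49 between Pgr and Prlr, 0.64 between Pgr and Slc12a2, 0.60 between Pgr and Sprr1a, 0.04 between Pgr and Amtn and -0.37 between Pgr and Krt14. These are descriptions over 242 cells of 1 library, which share their depth and the selection.

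Since the members were shallower cells, shares of cells with a UMI were also taken after each cell had been thinned to 5500 UMIs, which left out 0 cells. Pgr was then found in 70.7% of the members (64.5 to 76.3), 4.37% of the other epithelial cells and 16.6% of the Pdgfra-positive cells. The unthinned shares were 82.2%, 8.89% and 32.1%. Prlr was found in 51.7% (45.2 to 58.1), 3.44% and 0.922%, and Areg in 43.8% (37.5 to 50.3), 9.73% and 0.660%. The part of free RNA in the shares of the Pdgfra-positive cells was not tested.

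**Figure D3:**
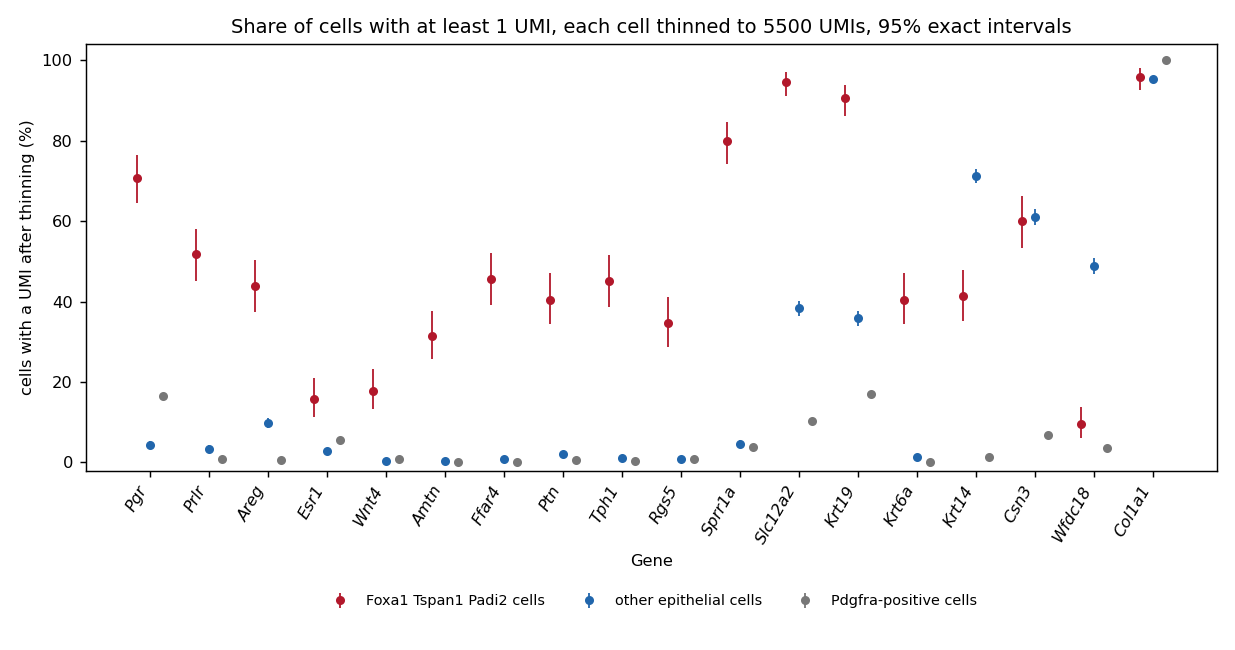
Percent of cells with at least 1 UMI of each of 18 genes after each cell was thinned to 5500 UMIs, in the members and both comparison groups, with exact binomial 95% intervals. Pgr reaches 70.7% of the members and 4.37% of the other epithelial cells, Csn3 is found in 59.9% and 61.0% and does not separate them, and Col1a1 is found in 95.9%, 95.2% and 100%.

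Slc12a2, the sodium, potassium and chloride cotransporter that loads chloride into secretory epithelia, was at 2764 CPM (2701 to 2829) against 130 CPM and 23.5 CPM. All but 6 members had a Slc12a2 UMI, with a median of 20 and a maximum of 138 per cell. Slc5a5, the iodide transporter of thyroid and lactating breast, was at 106 CPM (93.7 to 119) against 4.32 CPM and 0.568 CPM, with a UMI in 124 members. Of the 12 genes of the list of apical mucins and transporters, Slc12a2 alone reached 20 CPM. Muc1, a luminal mucin, had 2 UMIs and Aqp5, a water channel, was at 8.43 CPM against 18.3 CPM.

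Tph1, the enzyme that starts serotonin synthesis, was at 243 CPM (224 to 263) in the members, 2.84 CPM in the other epithelial cells and 0.708 CPM in the Pdgfra-positive cells. Its UMIs were found in 145 members, with up to 35 per cell. The log2 ratio of Tph1 to the other epithelial cells was 6.42, but 4.95 after thinning before selection and 8.84 with the keratin limit at 20. Ddc, which completes serotonin synthesis, and Slc18a1, which loads it into vesicles, were looked at after the values of Tph1 had been seen. Ddc had 2 UMIs in the members and Slc18a1 had 7, so the transcript of the first enzyme was high without that of the second. Ffar4, a receptor for long-chain fatty acids, was at 141 CPM (127 to 157) against 1.62 CPM and 0.287 CPM, with a UMI in 151 members. Neither Ffar1 nor Ffar2 exceeded 1 UMI.

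Ptn, the growth factor pleiotrophin, was at 225 CPM (208 to 244) against 4.95 CPM and 0.970 CPM. Wnt5a, a ligand of noncanonical Wnt signalling, was at 701 CPM (669 to 733) against 37.0 CPM in the other epithelial cells and 102 CPM in the Pdgfra-positive cells, with a UMI in 222 members. Dkk2, a secreted modulator of Wnt receptors, was at 503 CPM against 10.9 CPM and 23.5 CPM. Wnt5a and Dkk2 were thus above the stromal level as well as the epithelial level. Pdgfa, a growth factor whose receptor is encoded by Pdgfra, was at 751 CPM against 248 CPM and 116 CPM, with a UMI in 240 members.

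Of the 28 growth factor genes listed, 15 reached 20 CPM, 5 of these were at least 2-fold higher in the members (Areg, Ptn, Wnt4, Wnt5a and Pdgfa) and 4 at least 2-fold lower, with a median log2 ratio of -0.38. The 4 were Igf1 (3.45 against 24.3 CPM), Tgfb2 (15.3 against 48.3 CPM), Cxcl12 (18.8 against 41.9 CPM) and Tgfb3 (22.2 against 47.9 CPM), and the last 2 were under 2-fold with the keratin limit at 20. Cxcl12 was also under it with no keratin sum required of members. Tgfb3 was also just under it with a sum of at least 5 Foxa1, Tspan1 and Padi2 UMIs. Of the ErbB receptors, which receive amphiregulin and neuregulins, Erbb3 was higher at 66.7 CPM against 21.4 CPM and Egfr stood at 40.2 CPM against 77.2 CPM.

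Immune mediators were among the 25 leading genes. Il33, an alarm cytokine of barrier cells, was at 230 CPM (212 to 250) against 5.23 CPM and 15 CPM, although 15.2% of the last 400 bases of its transcript occur in other genes. Its UMIs were found in 100 members. The chemokines Cxcl15 and Cxcl13 were at 69.8 and 85.1 CPM against 1.02 and 1.36 CPM, and their UMIs were concentrated in few cells. The 25 members with the most Cxcl13 held 87.8% of its UMIs. Ctse, an aspartic protease of the endosome, was at 109 CPM against 1.79 CPM. Ly6d, a surface protein of squamous and lymphoid cells, was at 105 CPM against 1.65 CPM.

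The other leading genes had varied roles. Myb, a transcription factor of progenitor cells, was at 94.3 CPM against 4.04 CPM and had a UMI in 117 members. Tnr (72.1 against 0.853 CPM), an extracellular matrix glycoprotein, and Tenm4 (80.5 against 1.65 CPM), a teneurin adhesion receptor, belong to cell contacts. Pcp4, a calmodulin regulator, was at 84.3 CPM against 1.02 CPM, with 45.8% of its transcript end shared with Gm49948. AW112010, Pwwp3b and Trim29 stood at 319, 145 and 56.7 CPM against 8.39, 5.97 and 2.59 CPM.

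Sprr1a, a small proline-rich protein of the cornified envelope, was at 4877 CPM (4792 to 4962) in the members, 71.3 CPM in the other epithelial cells and 32.4 CPM in the Pdgfra-positive cells. It was found in 197 members, with a median of 32 and a maximum of 348 UMIs per cell. Its log2 ratio to the other epithelial cells was 6.10, and 5.74 to 6.94 in other settings. In the 15-gene interval from Sprr2a3 to Sprr4 on chromosome 3, the neighbours Sprr1b and Sprr3 had 2 and 1 UMIs. Sprr2a3 was at 68.6 CPM against 0.341 CPM, but the end of its transcript is shared in full with Sprr2a1 and Sprr2a2, so reads of these genes cannot be told apart.

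Among the keratins the members differed from the other epithelial cells in both directions. Krt19, a luminal keratin, was at 1166 CPM (1125 to 1208) against 109 CPM, or 10.7-fold, with a UMI in 230 members. Krt6a, a keratin of wounded and ductal epithelium, was at 121 CPM (108 to 136) against 2.93 CPM, while Krt6b, looked at after Krt6a had been seen, had no UMI in the members. Krt7 was at 413 CPM against 584 CPM. Krt14 and Krt17, keratins of basal cells, were lower, Krt14 at 176 CPM (160 to 192) against 340 CPM and Krt17 at 59.0 CPM (50.1 to 69.1) against 283 CPM. Krt14 was nevertheless found in 129 of the members, and the 25 members with the most Krt17 held 89.0% of its UMIs. Krt4, Krt15, Krt20 and Krt23 were each at 2.30 CPM or less in the members, Krt15, another basal keratin, with 6 UMIs against 0.227 CPM in the other epithelial cells.

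Genes of the general epithelial program were near or above the level of the other epithelial cells. Of 26 listed, 23 reached 20 CPM. Against the other epithelial cells 8 of these were at least 2-fold higher and 0 lower, with a median log2 ratio of 0.87. Elf3, an epithelial ETS factor, was 6.10-fold higher, Crb3, a polarity protein, 3.26-fold, Grhl2, a regulator of junction genes, 2.85-fold, and Esrp2, a splicing factor, 2.63-fold. These genes and Prss8, Ocln and Marveld2 reached 20 CPM in the members alone and so could not have been counted as lower. Cldn4 and St14 were past 2-fold by little (2.15 and 2.07-fold). Both were under it with the keratin limit at 20 and with no keratin sum required of members. St14 was also under it with doublets left out (log2 0.99) and against other epithelial cells with no Pdgfra and fewer than 3 Krt5 UMIs (0.98). Ap1m2 (2.16-fold) was under it with a sum of at least 5 Foxa1, Tspan1 and Padi2 UMIs. Against the Pdgfra-positive cells all 23 were at least 2-fold higher, from 10.4-fold for Esrp2 to 213-fold for Elf3.

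Enamel and milk genes of the casein cluster on chromosome 5 were expressed from separate positions. Amtn encodes amelotin, an enamel matrix protein, and lies at 88523967 to 88533775. It was at 242 CPM (223 to 261) in the members, 1.79 CPM in the other epithelial cells and 0.621 CPM in the Pdgfra-positive cells. Only 83 members had an Amtn UMI, the highest had 45, and the 25 with the most held 72.4%. Its log2 ratio to the other epithelial cells was 7.08, and 5.69 to 8.69 in other settings. Its enamel neighbours Ambn and Enam had no UMI.

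Csn3, which encodes the kappa casein of milk and lies at 88073438 to 88080524, was at 1296 CPM (1253 to 1340) against 544 CPM, or 2.38-fold, and under 2-fold (log2 0.69) with the keratin limit at 20. Odam, an enamel-related gene next to the caseins, was at 18.0 CPM (13.2 to 24.0) against 1.96 CPM. Csn1s2b had 12 UMIs, whereas Csn1s1, Csn2 and Csn1s2a had none in the members. Lalba and Wap, the genes of other milk proteins elsewhere in the genome, had none either.

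The peptidylarginine deiminase genes form a cluster with Padi2 on chromosome 4. Padi4 was at 75.1 CPM (65.0 to 86.4) in the members against 13.7 CPM and 0.387 CPM, and 119 members had a UMI. Of the last 400 bases of its transcript, 28.5% also occur in Tapbpl. Padi1 and Padi3 had 14 and 6 UMIs and Padi6 had none.

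Markers of secretory luminal cells were mostly lower in the members, and Csn3 was the only one of them at least 2-fold higher. Of 20 listed genes, 12 reached 20 CPM, 7 of these were at least 2-fold lower and 1 higher, with a median log2 ratio of -1.41. Trf, Plet1 and Sox10 reached 20 CPM in the other epithelial cells alone and so could not have been counted as higher. Plet1 was under 2-fold (log2 -0.90) with the keratin limit at 20. Spp1 was under it against other epithelial cells with no Pdgfra and fewer than 3 Krt5 UMIs (-0.90), and with no keratin sum required of members (-0.41). Wfdc18, a secreted whey acidic protein family member, had the lowest ratio of the genes ranked at 50 CPM or more, rule genes left out. It was at 109 CPM (96.6 to 122) in the members and 1244 CPM in the other epithelial cells, or 0.0875 times their level. Its log2 ratio was -3.51, and -4.28 to -2.34 in other settings. Only 36 members had a Wfdc18 UMI, and 25 of them held 96.1% of its UMIs. Lcn2, an iron-scavenging lipocalin, was at 145 CPM against 413 CPM. Aldh1a3, a retinoic acid enzyme of luminal progenitors, was at 49.1 CPM (40.9 to 58.3) against 168 CPM, but under 2-fold (log2 -0.79) with the keratin limit at 20. Kit and Elf5, which define luminal progenitors, had 1 and 2 UMIs in the members and were at 0.597 and 1.71 CPM in the other epithelial cells, so these defining markers were near 0 in both groups.

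Basal and myoepithelial genes were mixed. Of 18 listed genes, Krt5 was used by the rule and 9 others reached 20 CPM. Of these, 4 were at least 2-fold lower (Krt17, Acta2, Cnn1 and Procr) and 2 higher, with a median log2 ratio of -0.95. The higher ones were Lamb3, a laminin chain, at 164 CPM against 71.4 CPM, and Itga6, a laminin receptor, at 184 CPM against 86.5 CPM. Itga6 was under 2-fold with the keratin limit at 20 and with no keratin sum required of members. Acta2, smooth muscle actin, was at 543 CPM against 1361 CPM. The defining basal genes Trp63 and Col17a1 had 4 and 5 UMIs in the members, and Oxtr and Krt5 had none. Trp63, Col17a1 and Oxtr were at 2.70, 4.72 and 2.25 CPM in the other epithelial cells, so they were low in both groups.

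Other genes among the 15 with the lowest ratios were Sox10, a neural crest and mammary progenitor factor, at 19.9 CPM (14.9 to 26.1) against 107 CPM, and Col18a1, a basement membrane collagen, at 67.5 CPM against 308 CPM. Ntn1, the guidance cue netrin 1, was at 36.0 CPM against 184 CPM, and Pla2g7, a phospholipase of platelet-activating factor, at 12.6 CPM (8.71 to 17.8) against 127 CPM. Nes, an intermediate filament gene, and Ankrd1, a stretch-responsive gene, were at 34.1 and 50.2 CPM against 153 and 239 CPM. Mme, a membrane peptidase, was at 14.6 CPM against 82.8 CPM. Car2, St3gal5, Crabp2, Cytip, Plekhb1 and Cavin2 completed the 15, between 10.7 CPM for Cytip and 26.8 CPM for Cavin2 in the members.

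**Figure D4:**
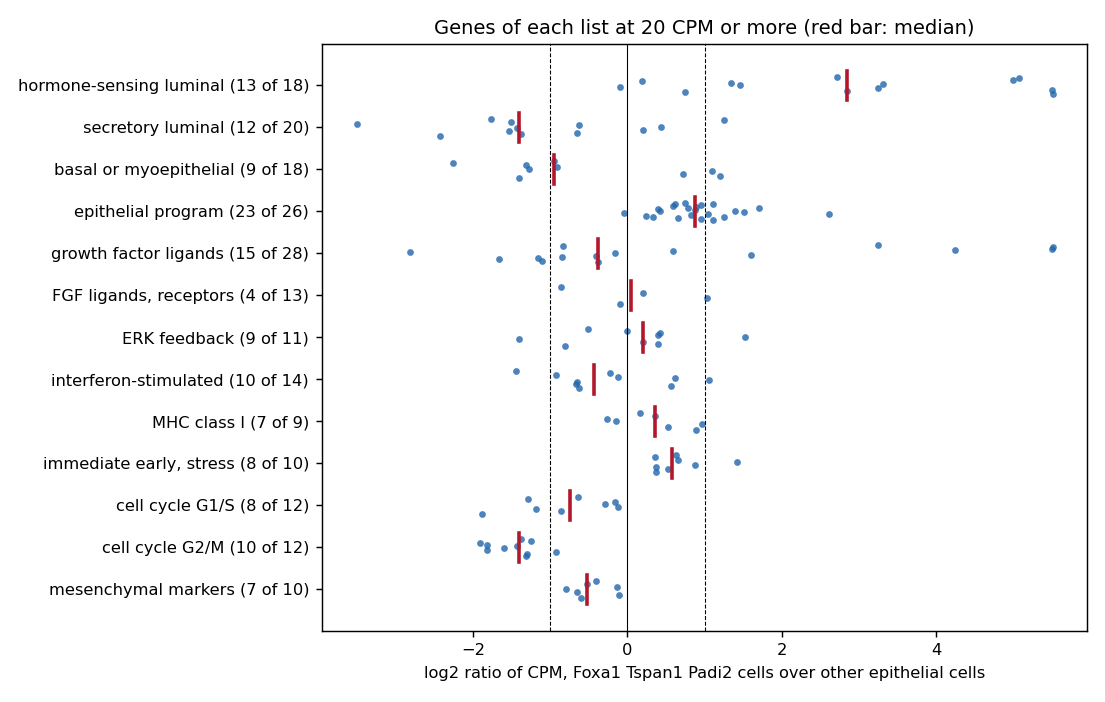
Log2 ratio of CPM, members over other epithelial cells, for the genes of 13 lists that reached 20 CPM in either group, with the number of such genes of the number listed. Red bars mark medians, which run from 2.84 for hormone-sensing luminal genes to -1.41 for secretory luminal genes, and dashed lines mark 2-fold.

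Cell cycle transcripts were lower in the members than in either comparison group. Of 12 G2/M genes, 10 reached 20 CPM against the other epithelial cells, and 9 of these were at least 2-fold lower, with a median log2 ratio of -1.40. Mki67, Ccnb1, Ccnb2, Plk1, Bub1 and Cenpf reached 20 CPM in the other epithelial cells alone. Without that limit, each of the 12 was at a lower CPM in the members than in the other epithelial cells, Aurka (6.13 against 16.3 CPM) and Aurkb (3.83 against 13.7 CPM) included. Against the Pdgfra-positive cells all 12 were at least 2-fold lower. Mki67, a proliferation marker, was at 19.5 CPM (14.6 to 25.7), against 50.9 CPM in the other epithelial cells and 107 CPM in the Pdgfra-positive cells. Its UMIs came from 23 members. The log2 ratio of Mki67 to the other epithelial cells was -1.38, and -2.79 when cells were thinned before selection. The 8 G1/S genes that reached 20 CPM had log2 ratios from -1.88 to -0.12. Of these, 3 were at least 2-fold lower (Ccne1, Mcm5 and Rrm2), Rrm2 under 2-fold with the keratin limit at 20 and with doublets left out (log2 -0.92). After thinning to 5500 UMIs, a UMI of any of Mki67, Top2a, Cdk1, Ccnb1, Birc5 and Ube2c was found in 33.9% of the members (27.9 to 40.2), 51.5% of the other epithelial cells and 73.0% of the Pdgfra-positive cells. The unthinned shares were 47.9%, 70.3% and 89.3%. Of the 23 members with Mki67, 20 had Krt14 (87.0%), although Krt14 was found in 53.3% of all members. Among 6 inhibitors of the cycle, Gadd45a was 2.73-fold higher and Cdkn1a stood at 391 CPM against 256 CPM.

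Transcripts of FGF receptor genes were present in the members. Counts per gene do not separate receptor isoforms, which differ in the FGFs they bind, so reception of the added FGFs was not tested. Fgfr2, whose epithelial isoform receives FGF7 and FGF10, was at 96.2 CPM (84.7 to 109) against 47.0 CPM in the other epithelial cells and 39.7 CPM in the Pdgfra-positive cells. Its 2.05-fold ratio was at or under 2-fold in 5 of 9 other settings, with a lowest log2 ratio of 0.59. Fgfr1 was at 164 CPM (149 to 180) against 143 and 292 CPM. Fgfr3 and Fgfr4 had no UMI in the members. Of the ligands, Fgf2 was at 23.4 CPM against 42.4 CPM in the other epithelial cells and 290 CPM in the Pdgfra-positive cells. Of 11 genes of ERK feedback, which follow FGF signalling, 9 reached 20 CPM with a median log2 ratio of 0.20. Dusp4 was 2.89-fold higher and Dusp5 0.38 times as high, the latter under 2-fold with the keratin limit at 20. The cultures of 4 treatments cannot be told apart within these values.

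Interferon-stimulated and antigen presentation genes were mostly within 2-fold of the other epithelial cells, as were most of all 7055 genes compared. Over all of those genes, 6.07% were at least 2-fold higher in the members and 3.74% lower. Of 10 interferon-stimulated genes at 20 CPM or more, 1 was at least 2-fold higher (Usp18) and 1 lower (Isg15, 47.1 against 128 CPM). Of 7 genes of MHC class I presentation, 0 were past 2-fold, with a median log2 ratio of 0.36. H2-K1 and H2-D1 were at 613 and 879 CPM against 550 and 686 CPM. Against the Pdgfra-positive cells, 4 of 7 MHC class I genes were at least 2-fold higher and 0 lower, from 2.30-fold for H2-K1 to 4.63-fold for Tapbp, a loading chaperone. Of 11 interferon-stimulated genes compared with those cells, 3 were at least 2-fold higher and 4 at least 2-fold lower. Over all 7516 genes compared with those cells, 15.4% were at least 2-fold higher in the members and 14.4% lower. Among 8 immediate early and stress genes, Junb was 2.68-fold higher and the others stood between log2 0.36 and 0.87.

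Markers of other cell types were measured over whole lists. The 8 immune markers summed to 7.28 CPM in the members, 21.1 CPM in the other epithelial cells and 29.5 CPM in the Pdgfra-positive cells, and 3 of the 8, Ptprc among them, had no UMI. The 8 adipocyte markers summed to 27.2, 40.9 and 295 CPM. Adipoq, Plin1, Cidec, Lep and Cfd had no UMI in the members, while Lpl was at 13.8 CPM, Fabp4 at 10.3 CPM and Pparg at 3.07 CPM. The 10 mesenchymal markers, with Pdgfra left out because the rule used it, summed to 8077, 9564 and 32117 CPM. In the members most of this sum was Fn1, fibronectin, at 5053 CPM against 5466 CPM in the other epithelial cells and 1524 CPM in the Pdgfra-positive cells, or 3.32-fold higher in the members than in the latter. Against the Pdgfra-positive cells, 7 of the 8 markers compared were lower in the members and Fn1 was higher. Col1a1 was at 1734 CPM in the members against 17301 CPM in the Pdgfra-positive cells. It was found in all but 1 member, and the 25 members with the most held 63.1% of its UMIs. The part of free RNA in this level was not tested.

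Few genes carried the sums of the mural list (317, 15.8 and 59.3 CPM) and the endothelial list (71.7, 6.77 and 24.7 CPM). Rgs5, a regulator of G-protein signalling known from pericytes, was at 255 CPM (236 to 275) in the members against 1.93 CPM and 1.98 CPM, and 95 members had a UMI. Of the other mural markers, Kcnj8 and Higd1b had no UMI, Abcc9 had 1, Cspg4 was at 5.37 CPM against 48.4 CPM in the Pdgfra-positive cells, and Notch3 was at 56.7 CPM against 6.85 and 6.96 CPM. Flt1, a VEGF receptor, was at 68.6 CPM (58.9 to 79.4) against 3.01 and 13.3 CPM. Of the other endothelial markers, Kdr, Emcn, Tie1 and Cldn5 had no UMI in the members, Pecam1 had 4 and Cdh5 had 2. Of 9 skin gland markers listed in the matrix, Fasn alone reached 20 CPM, and Krt1, Flg, Krt79 and Krt71 had no UMI.

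Levels differed along the UMI sum that chose the members, also below its limit. The cells with no Pdgfra and fewer than 3 Krt5 UMIs within the epithelial limits were divided by that sum. Pgr was at 5.62 CPM in the 1979 cells with a sum of 0, 26.8 CPM in 118 cells with 1, 78.7 CPM in 38 cells with 2, 151 CPM in 50 cells with 3 or 4, 286 CPM in 65 cells with 5 to 7 and 504 CPM in 127 cells with 8 to 27. Sprr1a ran from 14.6 through 254, 1392, 2161 and 4017 to 6375 CPM over the same classes. Wfdc18 ran the other way, from 1368 through 1333, 595, 228 and 171 to 31.2 CPM, and Krt17 from 273 through 308, 212, 176 and 65.7 to 9.42 CPM. Csn3 was at 564 CPM in the class with 0 and 1539 CPM in the class with 8 or more.

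**Figure D5:**
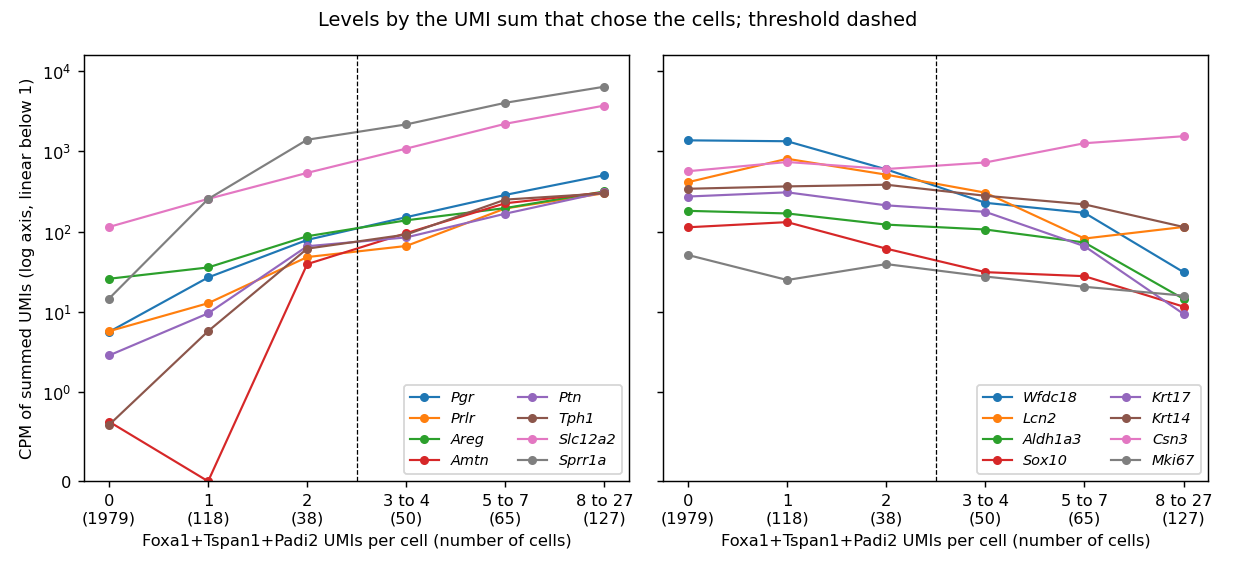
CPM of 16 genes (log axis, linear below 1) by the sum of Foxa1, Tspan1 and Padi2 UMIs per cell, with the number of cells in brackets and the member limit of 3 as a dashed line. Pgr, Sprr1a and the other genes of the left panel are higher in each class from 2 UMIs on, and Wfdc18, Aldh1a3, Sox10 and Krt17 of the right panel are lowest in the class with 8 to 27 UMIs.

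On either side of the limit stood 38 cells with a sum of 2 and 22 members with a sum of 3. Pgr was at 78.7 and 121 CPM in them, Prlr at 48.1 and 47.0 CPM, Tph1 at 61.2 and 62.6 CPM, Lcn2 at 511 and 560 CPM and Krt17 at 212 and 207 CPM. Wnt5a (133 and 317 CPM), Slc12a2 (538 and 1307 CPM) and Wfdc18 (595 and 223 CPM) were further apart. Of the cycling genes, Top2a was at 83.1 and 11.7 CPM, Mki67 at 39.3 and 31.3 CPM and Cdk1 at 72.1 and 50.9 CPM. No intervals were taken for these small classes.

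Cells with the same 3 transcripts also lay outside the keratin limit. Among filtered iWAT cells with no Pdgfra and fewer than 3 Krt5 UMIs, 278 had a sum of 3 or more but failed the epithelial limits, 277 of them for a keratin sum under 10 and 3 for lack of Epcam. Their median depth was 7867 UMIs and their median keratin sum 5. They stood at 371 CPM for Pgr, 260 CPM for Amtn, 3579 CPM for Sprr1a, 2673 CPM for Slc12a2, 1337 CPM for Csn3 and 16.8 CPM for Wfdc18, and at 271 CPM for Krt8. Pgr, Amtn, Slc12a2, Csn3 and Sprr1a were within 1.5 times the level of the members, while Wfdc18 (16.8 against 109 CPM), Krt8 (271 against 873 CPM) and Krt19 (746 against 1166 CPM) were lower. Areg (129 against 247 CPM), Prlr (141 against 223 CPM), Wnt4 (19.6 against 33.3 CPM), Krt6a (56.7 against 121 CPM), Ly6d (44.3 against 105 CPM) and Tnr (37.5 against 72.1 CPM) were also more than 1.5 times lower. A further 16 cells within the epithelial limits had a sum of 3 or more and a Pdgfra UMI, and 0 were left out for Krt5. Of the Pdgfra-positive cells, 61 (0.356%) had a sum of 3 or more.

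The same rule found 0 cells among the 28215 filtered iBAT cells, which by the floor of 3 counts allows a share of up to 0.0106%. In iBAT 111 cells had an Epcam UMI, no cell had a keratin sum above 5, and 15 cells had 3 or more UMIs of Foxa1, Tspan1 and Padi2, with at most 6. The iBAT cells were deeper, with a median of 27235 UMIs against 16204 in iWAT. With 1 library per depot, depot and library cannot be told apart.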

How the data were processed

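Each depot was deposited as 1 matrix of whole-number UMI counts per gene and cell, with its gene and cell index lists. Alignment and gene annotation of the reads were run by the authors with a commercial online workflow, whose version is not given in the sources used here, and the submitters' processing notes list mm39 and Seurat 5.0.0. The deposited counts were not normalized. Treatment tags per cell were not used here, so each depot was taken as 1 sample, and no p-value or replicate error could be given. Deposited counts summed to 503611913 UMIs in iWAT (29962 cells) and 815235820 in iBAT (28636 cells).

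Cells with more than 200 and fewer than 7500 genes and under 30% mitochondrial UMIs were kept, which removed 218 iWAT cells. Members were then selected on raw counts. UMIs were summed per group and expressed as CPM with exact Poisson intervals, and ratios of CPM carry exact conditional binomial intervals. A gene entered a comparison at 20 CPM or more in either group and was counted as higher or lower from 2-fold on. For a group with 0 counts a floor of 3 UMIs applied. Shares of cells carry exact Clopper-Pearson intervals, and thinning to 5500 UMIs per cell used a fixed seed. Doublets were called with Scrublet in scanpy 1.11.5 and kept. Genes named for their ratio were the 25 highest and 15 lowest against the other epithelial cells and the 10 highest against the Pdgfra-positive cells, at 50 CPM or more. Others come from gene lists, apart from those said to have been looked at later and neighbours in gene clusters. Symbols were matched to GENCODE M39 (26073 of 28651 matched 1 gene). The members and lists were chosen with earlier results of these data known. Of the steps, the comparison of summed counts between 2 groups was tested, on simulated counts with the counting error that its intervals assume. Python 3.11.15, numpy 2.4.6, scipy 1.17.1, pandas 2.3.3 and matplotlib 3.10.9 were used.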

Additional observations from a re-analysis of the deposited data

How the results depend on the processing

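The number of members depended on the limits. It was 64 with a keratin sum of at least 20, 86 when every cell was thinned to 5500 UMIs before selection, and 517 when no keratin sum was required, an alternative chosen after seeing the data, against 242. It stayed within 1.5 times that number with no upper limit on genes together with a 15% mitochondrial limit, a Foxa1, Tspan1 and Padi2 sum of at least 5, or doublets left out. Against the other epithelial cells, 692 genes were higher and 493 lower after thinning, 759 and 572 with a minimum of 5 CPM, and 151 and 74 with a minimum of 100 CPM, in place of 428 and 264. Against the Pdgfra-positive cells, 1864 were higher and 1841 lower at 5 CPM, and 370 and 352 at 100 CPM, in place of 1159 and 1082. Minimums set how many genes were compared. For thinning the cause was not tested. Among 198 named or listed genes, 0 of those at least 2-fold apart in the main setting changed direction under 9 alternatives. For genes within 2-fold a change of direction was not counted. With the keratin sum at 20, 13 fell under 2-fold, Gata3 (log2 0.95), Aldh1a3 (-0.79) and Csn3 (0.69) among them. The log2 ratio ran from 5.04 to 5.56 for Pgr, 4.72 to 5.07 for Prlr, 5.69 to 8.69 for Amtn, 4.95 to 8.84 for Tph1, 5.95 to 7.59 for Ffar4, 5.74 to 6.94 for Sprr1a, -2.79 to -1.26 for Mki67 and -4.28 to -2.34 for Wfdc18. The iBAT count was 0 in each setting run. No paired analysis was possible because each depot was 1 library and no result comes from a test. The floor of 3 UMIs was 1.15 CPM in the members.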

Other observations

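Within the epithelial limits, 38 cells had at least 3 Krt5 UMIs. They stood at 937 CPM for Krt14, 1474 CPM for Krt17 and 7411 CPM for Acta2, and had no Foxa1 UMI. Within the same limits, 331 cells had a Pdgfra UMI, and 7 of these also had at least 3 Krt5 UMIs.

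Among the members, transcripts of several leading genes came from overlapping cells. Of the 62 members with Cxcl15, 60 had Pgr (96.8%), and of the 63 with Ly6d, 62 had Sprr1a (98.4%), whereas these partners were found in 82.2% and 81.4% of all members. The Spearman correlation over the 242 members was 0.38 between Rgs5 and Csn3, 0.64 between Prlr and Slc12a2 and 0.01 between Pgr and Krt6a. All pairs share the library and the depth of the cells.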
